A study of Mus musculus with 12 samples.

Results

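The genes described here are 32 members of the protein-folding and quality-control machinery of the endoplasmic reticulum (ER) in mouse small intestine and liver, out of 34348 genes in the expression table. They were listed by name, and earlier results of these data, among them a rise of Creld2 in liver, were known when the list was made. Counts of members that changed are therefore a description and support nothing by themselves. All 32 names were found in the table. Grouped by role, 10 members are chaperones, 8 are folding enzymes, 8 belong to ER-associated degradation, 4 are stress sensors or their transcription factors and 2 are subunits of the translocation channel.

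Proteins that enter the ER are folded there by chaperones such as Hspa5 (BiP) and by enzymes that form and rearrange disulfide bonds. Chains that fail to fold are drawn out through a membrane complex built around Sel1l, the Derlins and the ubiquitin ligase Syvn1 (Hrd1), and are degraded in the cytosol. When unfolded chains accumulate, the sensors Ern1 (IRE1 alpha), Eif2ak3 (PERK) and Atf6 start the unfolded protein response, in which Xbp1 and cleaved Atf6 switch on chaperone and degradation genes. Hepatocytes and antibody-secreting plasma cells both carry a large secretory load and a well-developed ER.

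Total RNA of C57BL/6 mice was sequenced in 4 groups of 3 libraries. They were small intestine of mice given PBS, small intestine of mice labelled LCWE-induced, liver of mice given PBS and liver of mice labelled LCWE-induced. LCWE is the usual abbreviation for Lactobacillus casei cell wall extract, which is injected to model Kawasaki disease vasculitis in mice. The labels do not spell it out, and give no genotype beyond the strain and no age, sex, dose or time. The columns of the authors' comparison are headed LCWECFA, and no source used here spells out CFA. Libraries keep the numbers of their labels. In each tissue PBS libraries carry 2, 3 and 4, and LCWE libraries 1, 2 and 4. No label says that each library is a different mouse. The p-values here therefore speak of scatter among these libraries, which could be technical.

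Values are RPKM, which corrects reads for the length of the gene and the depth of the library, so levels can be compared between genes. Reads assigned to genes ranged from 30294594 to 44921885 per library, and 0.963 was the lowest correlation of log2 values between libraries of 1 group. Derl3 was the least sampled member, with 17 reads in the lowest library, and each other member had at least 320 reads in every library. Hepatocyte markers (Alb, Ttr, Apoa1, Serpina1c, Cyp2e1) summed to between 22196 and 43981 RPKM in the liver libraries, and goblet cell and Paneth cell markers were present in every intestinal library. Differences are in log2(RPKM + 0.5), a scale on which genes of low level show too small a change. Changes were called at a Benjamini-Hochberg adjusted p below 0.05 over all genes tested with limma.

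In liver, 7 of the 10 chaperones and 4 of the 8 degradation members rose with LCWE, while of the sensor members Eif2ak3 alone passed the test. Creld2, a disulfide isomerase-like factor of the ER, moved most, from 62.6 to 384 RPKM on average. Of the 32 members, 14 rose and 0 fell, where 3.39% of the 14404 genes tested rose and 0.646% fell. All 32 differences lay above 0 (31 with quantile scaling and 30 with median-ratio scaling), with a median of 0.58 beside 0.06 over all genes tested. The lowest was 0.04 (Derl2) and the highest 2.65 (Creld2). Of all calls in liver 84.0% were higher, 73.5% with quantile and 76.6% with median-ratio scaling. The LCWE libraries all lay above the PBS libraries for 25 members and below them for 0, where the same held for 18.7% and 8.84% of all genes. Of all reads assigned to genes, the 32 members took 1.49%, 1.43% and 1.60% in the PBS livers and 2.74%, 2.58% and 2.39% in the LCWE livers.

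**Figure D1:**
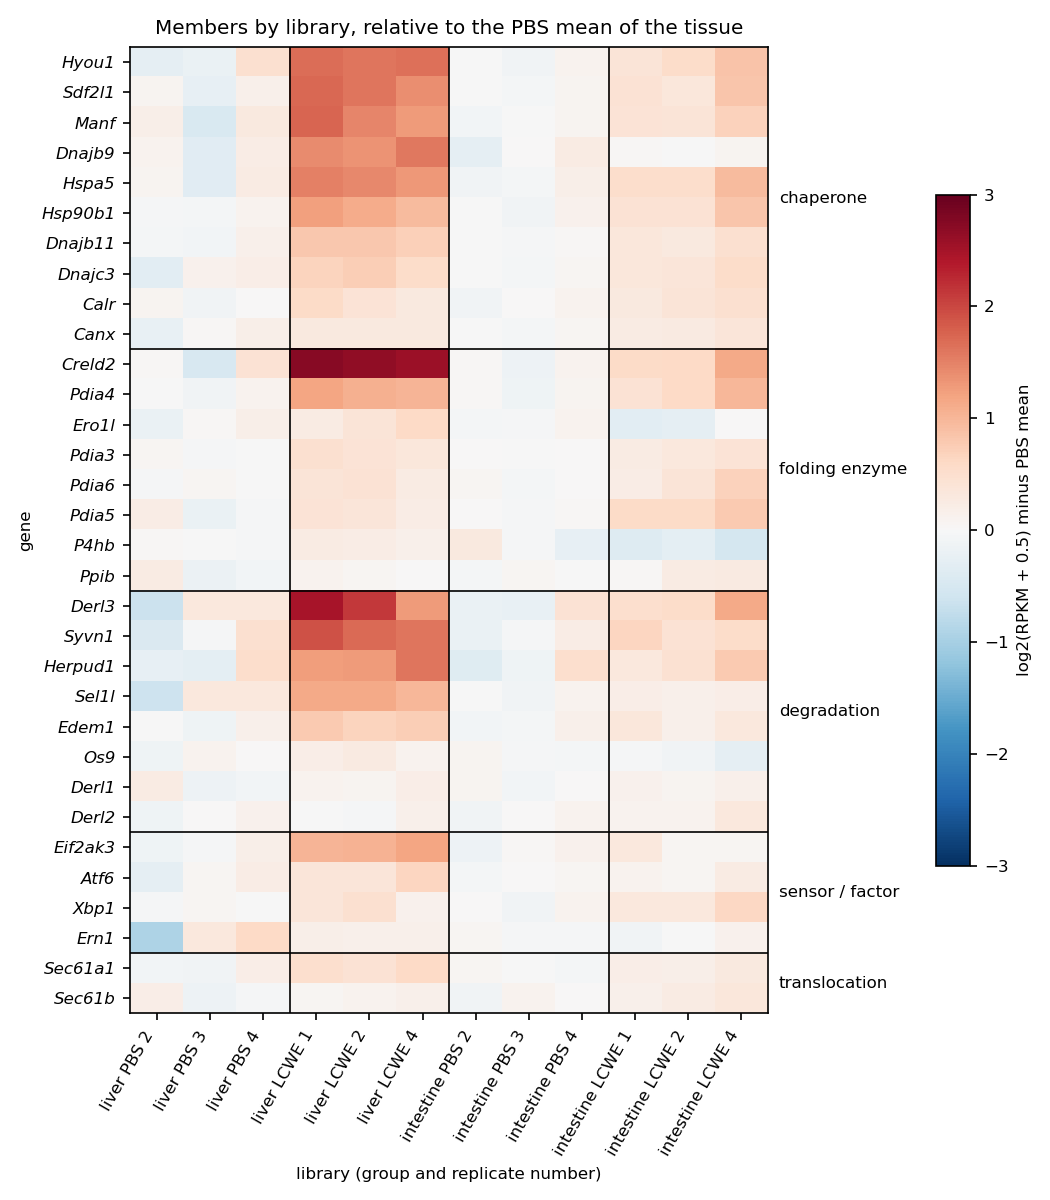
Heat map of the 32 members (vertical axis, ordered by role) in the 12 libraries (horizontal axis, grouped by tissue and treatment). The colour is log2(RPKM + 0.5) minus the mean of the PBS libraries of the same tissue, and the reddest cells are those of Creld2 in the 3 LCWE livers.

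The split by role was uneven in count. Among the chaperones 7 of 10 rose, with a median difference of 1.26. Among the degradation members 4 of 8 rose, with a median of 0.91. Folding enzymes gave 2 of 8 and a median of 0.38, sensors and their factors gave 1 of 4 and 0.38, and the translocation channel gave 0 of 2 and 0.31. No test of one role against another was made. The chaperones took 0.937%, 0.874% and 1.02% of reads in the PBS livers and 1.90%, 1.76% and 1.61% in the LCWE livers. The sensor members took far less, 0.0305% to 0.0416% in PBS and 0.0450% to 0.0494% in LCWE livers.

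**Figure D2:**
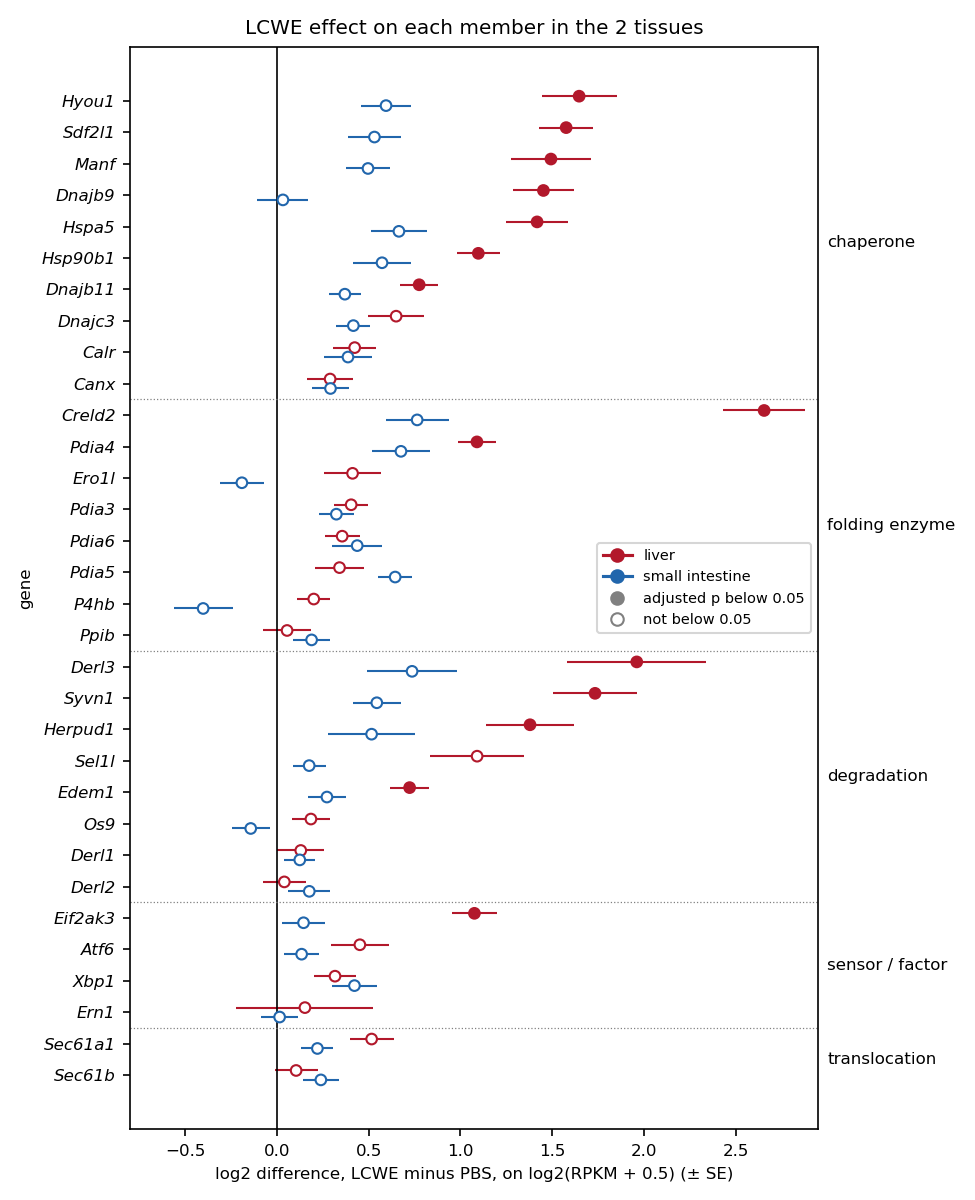
Difference of LCWE from PBS in log2(RPKM + 0.5) for each member (vertical axis, by role) in liver and small intestine, with bars of the standard error. Filled circles passed the limma test at an adjusted p below 0.05 and open circles did not, so 14 liver circles are filled and no intestinal circle is.

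Promoter sequences are shown because ER chaperone genes are known for a shared element, the ER stress response element (ERSE), to which the factors NF-Y and Atf6 or Xbp1 bind. RefSeq promoters of build GRCm38.p6, from 250 bases before to 50 after the annotated start, matched 27 of the 32 members, with Ero1l found under its synonym Ero1a. Hyou1, Manf, Derl1, Atf6 and Sec61a1 were not matched. Searches covered 4 motifs on both strands, namely ERSE (CCAAT, then any 9 bases, then CCACG), ERSE-II (ATTGG, then any 1 base, then CCACG), TGACGTGG and the single arm CCACG, which is contained in each of the other 3 on one strand or the other.

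ERSE was found in 9 of the 27 members and in 0.119% of all 32851 promoters. Of the matched members that rose in liver, 5 of 12 held it, against 4 of the 15 that did not pass the test. The 9 genes held 10 sites, of which 6 read along the gene and 4 against it, between 26 and 212 bases before the start. These are the sites, each read from CCAAT to CCACG, with the fixed letters of the motif in capitals.
Hspa5: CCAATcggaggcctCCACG
Hsp90b1: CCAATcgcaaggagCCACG
Hsp90b1, second site: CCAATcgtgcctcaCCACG
Pdia6: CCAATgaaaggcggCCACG
Dnajc3: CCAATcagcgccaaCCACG
Creld2: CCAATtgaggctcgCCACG
Syvn1: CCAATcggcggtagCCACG
Derl3: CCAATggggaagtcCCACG
Calr: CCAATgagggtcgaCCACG
Canx: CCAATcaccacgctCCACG

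The shorter ERSE-II was in 2 of 27 members, beside 0.0365% of all promoters. Both members rose in liver. The Herpud1 site lies 52 to 42 bases before the start and the Dnajb11 site 7 to 17 bases after it. Fixed letters are again in capitals.
Dnajb11: ATTGGcCCACG
Herpud1: ATTGGgCCACG

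The element TGACGTGG was in 0 of 27 members, beside 0.676% of all promoters. CCACG alone was in 23 of 27 members, in Derl2 only in its second promoter entry, beside 32.8% of all promoters. A match describes letters only, and no match says nothing of a factor's binding.

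The 4 stretches of 250 bases that end at the annotated start show how these elements lie, each on the strand of its gene. The first is from Creld2, the member with the widest difference in liver, at chr15:88819396-88819645, with the element in reverse so that it reads CGTGG, then ATTGG. The second is from Hspa5 at chr2:34771840-34772089, the third from Syvn1 at chr19:6046326-6046575, and the fourth from Dnajb9 at chr12:44210069-44210318, the only one of the 4 on the minus strand. Dnajb9 rose in liver with none of the 3 longer motifs in its window, so nothing in it is in capitals.
Creld2: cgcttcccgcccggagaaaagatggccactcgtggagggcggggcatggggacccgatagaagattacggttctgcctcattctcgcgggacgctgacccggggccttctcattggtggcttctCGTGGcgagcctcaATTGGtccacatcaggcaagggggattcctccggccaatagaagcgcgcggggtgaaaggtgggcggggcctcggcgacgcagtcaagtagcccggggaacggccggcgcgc
Hspa5: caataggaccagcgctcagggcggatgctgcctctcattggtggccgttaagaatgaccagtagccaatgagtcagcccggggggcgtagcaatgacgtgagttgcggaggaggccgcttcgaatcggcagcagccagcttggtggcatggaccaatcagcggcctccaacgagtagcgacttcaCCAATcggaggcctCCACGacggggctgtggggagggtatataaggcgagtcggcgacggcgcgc
Syvn1: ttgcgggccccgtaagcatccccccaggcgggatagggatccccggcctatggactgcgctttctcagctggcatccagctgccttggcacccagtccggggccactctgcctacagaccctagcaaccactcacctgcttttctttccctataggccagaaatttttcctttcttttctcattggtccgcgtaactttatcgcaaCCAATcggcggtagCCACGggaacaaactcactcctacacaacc
Dnajb9: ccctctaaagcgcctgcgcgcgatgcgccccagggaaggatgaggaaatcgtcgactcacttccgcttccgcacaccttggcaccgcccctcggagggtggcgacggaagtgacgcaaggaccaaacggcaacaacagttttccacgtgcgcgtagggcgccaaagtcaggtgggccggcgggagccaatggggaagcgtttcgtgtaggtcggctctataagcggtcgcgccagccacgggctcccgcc

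**Figure D3:**
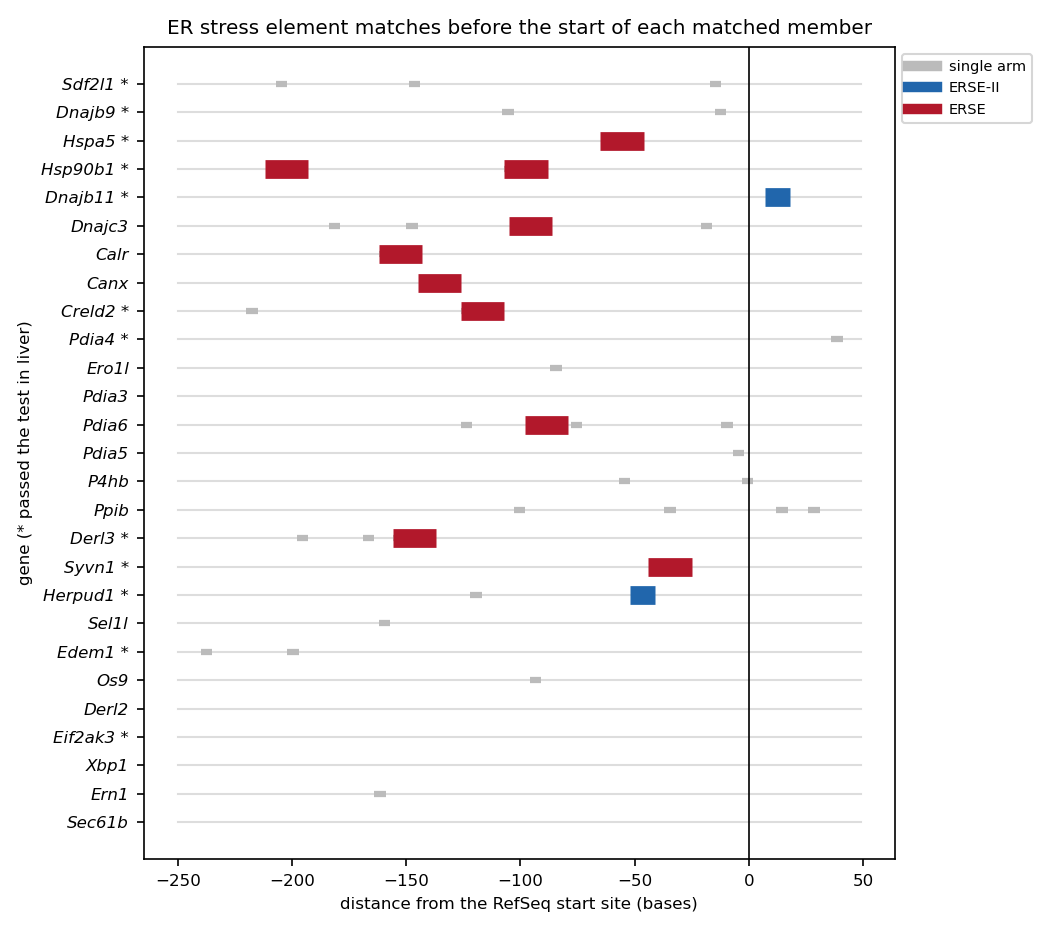
Position of each motif match (horizontal axis, bases from the RefSeq start) in the first RefSeq promoter of the 27 matched members (vertical axis, with * for those that rose in liver). ERSE and ERSE-II matches are marked apart from the single arm, and ERSE matches lie between 212 and 26 bases before the start.

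The central chaperone Hspa5 (BiP), an Hsp70 that binds unfolded chains and holds the sensors inactive, measured 285, 211 and 319 RPKM in the PBS livers and 769, 726 and 659 RPKM in the LCWE livers. The lowest LCWE liver was thus above the highest PBS liver. The log2 difference was 1.42 (SE 0.168, adjusted p = 0.0112). Hsp90b1 (Grp94), the ER Hsp90, was at 799, 781 and 874 RPKM in PBS and 1914, 1777 and 1572 RPKM in LCWE livers. In LCWE livers its mean level passed that of Calr, which led the 32 members in PBS livers, though the ranges of the pair overlapped. It differed by 1.10 (SE 0.118, adjusted p = 0.00835).

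Helpers of Hspa5 rose as well. Hyou1 (Grp170), its nucleotide exchange factor, measured 23.5, 24.6 and 40.1 RPKM in PBS and 92.9, 87.6 and 90.7 RPKM in LCWE livers, a difference of 1.65 (SE 0.204, adjusted p = 0.0124). Sdf2l1, a small partner of the ER J proteins, measured 16.1, 12.8 and 17.1 RPKM in PBS and 51.6, 47.7 and 40.5 RPKM in LCWE livers (1.58, SE 0.148, adjusted p = 0.00557). For both genes the groups were far apart relative to the spread within each. Dnajb9 (ERdj4), a J protein that also helps to keep Ern1 inactive, measured 26.8, 19.4 and 29.2 RPKM in PBS and 66.6, 64.2 and 75.3 RPKM in LCWE livers (1.45, SE 0.166, adjusted p = 0.00994). Dnajb11 (ERdj3), a secreted J protein, measured 54.1, 53.0 and 62.5 RPKM against 99.3, 99.1 and 92.3 RPKM (0.77, SE 0.102, adjusted p = 0.0142). Neither gene's groups overlapped. Manf, a secreted factor that binds Hspa5, measured 63.1, 40.9 and 68.7 RPKM in PBS and 188, 155 and 138 RPKM in LCWE livers (1.49, SE 0.218, adjusted p = 0.0188).

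The remaining 3 chaperones did not pass the test. Dnajc3 (P58IPK), a J protein of the ER lumen that also inhibits Eif2ak3, differed by 0.65 (SE 0.153, adjusted p = 0.0703). The lectin chaperones that hold glycoproteins in the folding cycle differed by less. Calr stood at 1019 to 1153 RPKM in PBS and 1333 to 1617 RPKM in LCWE livers (0.42, adjusted p = 0.108). Canx stood at 170 to 225 RPKM in PBS and 242 to 244 RPKM in LCWE livers (0.29, adjusted p = 0.275). In all 3 genes the groups nevertheless did not overlap.

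Of the folding enzymes, Creld2 measured 62.3, 43.0 and 82.5 RPKM in the PBS livers and 406, 383 and 363 RPKM in the LCWE livers. Its difference of 2.65 (SE 0.225, adjusted p = 0.00557) ranked 17 among the 14404 genes tested in liver. Pdia4 (ERp72), a disulfide isomerase that binds Hspa5 complexes, measured 289, 270 and 310 RPKM in PBS and 657, 605 and 589 RPKM in LCWE livers (1.09, SE 0.102, adjusted p = 0.00557). The other isomerases differed by less and did not pass. Pdia3 (ERp57), the partner of Calr and Canx, differed by 0.40 (adjusted p = 0.0652), Pdia6 by 0.36, Pdia5 by 0.34 and P4hb, the classical protein disulfide isomerase, by 0.20. Ero1l, which reoxidises P4hb, differed by 0.41 and the proline isomerase Ppib by 0.06. Of the exon bases of Ppib, 25.0% are shared with Snx22 on the opposite strand. No source used here states the strandedness of the libraries, so reads of such pairs cannot be told apart. Other members that share exon bases with a neighbour are Hsp90b1 (15.7%), Manf (9.25%), Sec61a1 (8.16%) and Eif2ak3 (8.05%). Smaller shares were those of Derl2 (2.87%), Syvn1 (1.74%), Pdia6 (1.34%), Pdia4 (0.584%) and Pdia3 (0.573%). Some neighbours of Hsp90b1 and Manf, and that of Pdia4, lie on the same strand.

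Among degradation members, the ubiquitin ligase of the retrotranslocation complex had the smallest p. Syvn1 measured 5.03, 6.75 and 9.85 RPKM in PBS and 27.5, 23.7 and 22.0 RPKM in LCWE livers (1.73, SE 0.229, adjusted p = 0.0143). Herpud1, which links Syvn1 to the Derlins, measured 31.5, 30.6 and 54.6 RPKM in PBS and 90.7, 91.4 and 115 RPKM in LCWE livers (1.38, SE 0.237, adjusted p = 0.0313). Both genes had PBS library 4 well above the other PBS livers but still below every LCWE liver. Edem1, a lectin that hands misfolded glycoproteins to degradation, measured 12.1, 11.2 and 13.6 RPKM against 21.3, 19.6 and 20.7 RPKM (0.72, SE 0.106, adjusted p = 0.0192).

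The 3 Derlins, membrane proteins of the retrotranslocation channel, did not move alike in liver. Derl3 measured 0.285, 1.02 and 1.01 RPKM in PBS and 6.27, 4.82 and 2.46 RPKM in LCWE livers (1.96, SE 0.379, adjusted p = 0.0429). Those values rest on 17, 49 and 53 reads in PBS and 318, 289 and 114 reads in LCWE livers. It was the member with the widest spread within a group, and its call was lost under 8 of the 16 other settings tried, with adjusted p reaching 0.267. Derl1 was at 21.9 to 28.8 RPKM in PBS and 25.9 to 28.0 RPKM in LCWE livers, and Derl2 at 4.33 to 5.29 RPKM and 4.68 to 5.40 RPKM. Their differences, 0.13 (SE 0.127) and 0.04 (SE 0.117), were about as small as their standard errors, and the groups overlapped.

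The scaffold Sel1l measured 12.1, 23.5 and 23.5 RPKM in PBS and 42.2, 42.2 and 37.9 RPKM in LCWE livers. Its groups did not overlap, but PBS library 2 lay far below the other PBS livers, and the difference of 1.09 (SE 0.255) gave an adjusted p of 0.0688. Without that library Sel1l passed the test. Os9, a lectin that recognises glycans on misfolded chains, was at 216 to 255 RPKM in PBS and 252 to 283 RPKM in LCWE livers (0.19, adjusted p = 0.414).

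Of the sensor members in liver, Eif2ak3 alone passed the test, and Ern1 alone had groups that overlapped. Eif2ak3 (PERK), the kinase that slows translation, measured 3.15, 3.42 and 4.05 RPKM in PBS and 7.64, 7.74 and 8.61 RPKM in LCWE livers (1.08, SE 0.122, adjusted p = 0.00961). Its LCWE livers were close together and well above all PBS livers. Ern1 (IRE1 alpha), the kinase and nuclease that splices Xbp1 mRNA, measured 4.92, 12.5 and 15.2 RPKM in PBS and 11.2, 10.9 and 10.9 RPKM in LCWE livers (0.15, SE 0.373, adjusted p = 0.865). Its PBS livers ran from below to above all LCWE livers, with PBS library 2 again the low one. Atf6, a membrane-held factor freed by cleavage, measured 4.23, 5.51 and 6.16 RPKM in PBS and 6.90, 6.85 and 8.42 RPKM in LCWE livers (0.45, SE 0.160, adjusted p = 0.194). Xbp1 measured 63.8, 67.8 and 64.6 RPKM in PBS and 83.7, 90.7 and 71.3 RPKM in LCWE livers (0.32, SE 0.114, adjusted p = 0.201). The gene-level table does not separate the spliced from the unspliced form of Xbp1 mRNA, and protein cleavage or phosphorylation of the sensors was not measured.

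The translocation channel subunits Sec61a1 and Sec61b differed by 0.52 (SE 0.120, adjusted p = 0.0676) and 0.10 (SE 0.117, adjusted p = 0.682). Sec61a1 measured 6.04 to 7.55 RPKM in PBS and 9.07 to 10.1 RPKM in LCWE livers without overlap, and Sec61b overlapped.

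**Figure D4:**
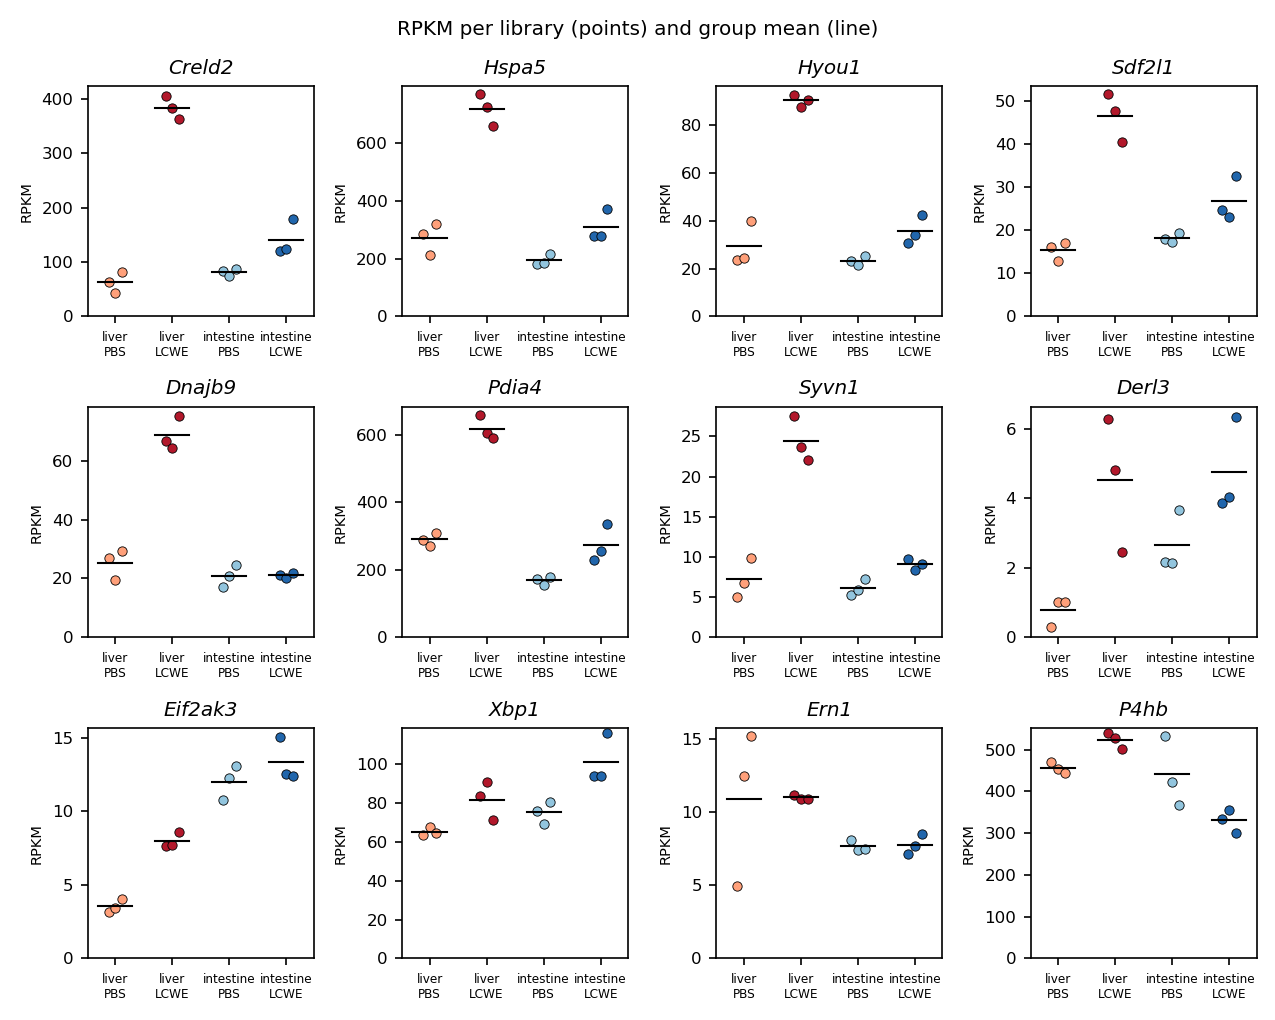
RPKM of single libraries (points) for selected members, by tissue and treatment on the horizontal axis, each with its own vertical axis from 0 and a line at the group mean. In liver the Creld2 points move from 43.0 to 82.5 with PBS to between 363 and 406 with LCWE, while the Ern1 points with LCWE lie inside the PBS range.

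Marker RNA of other cell types was also higher in LCWE livers. Summed macrophage markers ran from 121 to 172 RPKM in PBS and 318 to 588 RPKM in LCWE livers, and 4 of 6 rose. Neutrophil markers ran from 1.62 to 4.31 and 16.4 to 33.6 RPKM, and all 3 tested rose, where 3.39% of all genes tested did. S100a9 carried most of the neutrophil sum in LCWE livers (13.1 to 30.3 RPKM). Ly6g and Retnlg were too low to be tested in liver. Plasma cell markers ran from 46.3 to 77.8 and 82.0 to 103 RPKM, and 2 of 5 tested rose (Igkc and Jchain). Sdc1 made up a large part of that sum, at 29.7 to 35.8 RPKM in PBS and 26.7 to 33.1 RPKM in LCWE livers. It did not rise, and was lower in PBS intestines (12.9 to 22.3 RPKM) than in PBS livers. The defining plasma cell genes Mzb1, Tnfrsf17 and Pou2af1 were too low to be tested in liver, and Mzb1 stood at 0.154 to 0.198 RPKM in PBS and 0.175 to 0.221 RPKM in LCWE livers. Summed hepatocyte markers ran from 25680 to 43981 RPKM in PBS and 22196 to 24839 RPKM in LCWE livers, and 0 of 5 passed the test. Within that sum Alb, Apoa1 and Cyp2e1 overlapped between the groups, while Ttr and Serpina1c did not. Apoa1 was also high in PBS intestines (6521 to 8672 RPKM). The part of the marked cell types in the members' differences was not tested. In bulk tissue, a change in the number of cells of a type cannot be told apart from a change in RNA per cell.

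The authors' deposited table, limited to p below 0.05 and changes of 2-fold or more, holds 12 of the members among 797 genes for liver, all 12 with a log2 fold above 0. For the intestine, the authors' deposited table holds 0 members among 220 genes. In the authors' deposited table Creld2 has a log2 fold of 2.51 and Pdia4, the lowest of the 12, of 1.04. The 2 members called here but absent from the authors' deposited table are Dnajb11 and Edem1, both with differences below 1.

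The number of members called in liver depended on which libraries were kept. Without LCWE library 2, 3 members were called (Pdia4, Sdf2l1 and Creld2), and without LCWE library 1, 4 (the same 3 and Hsp90b1). Without PBS library 3, 7 were called. The number of all genes called fell in these refits too, from 582 to 55, 88 and 113. Without PBS library 2, PBS library 4 or LCWE library 4, 16, 13 and 12 members were called, and 943, 235 and 249 of all genes. With each library left out in turn, the median difference of the members ran from 0.48 to 0.68, beside 0.58 with every library. Creld2 was called under all 16 other settings tried, with an adjusted p between 8.09e-05 and 0.0465.

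In the small intestine most members were somewhat higher with LCWE, but none passed the test. No gene of the 17510 tested did, with limma (0%) or with voom on recovered reads. The count over all genes was above 0 in 3 of the other settings, at 243 (94 higher and 149 lower) in 1 fit over 4 groups, 70 without LCWE library 1 and 4 without LCWE library 2. At an unadjusted p below 0.05, 21 of the 32 members were counted, where 12.6% of all genes were. The LCWE libraries lay above all PBS libraries for 23 members, where 13.2% of all genes did so, and below them for 1 member (P4hb), where 6.15% did so. The median difference was 0.35 for the members and 0.11 for all genes tested, and 29 members lay above 0 (27 with quantile or median-ratio scaling). By role it was 0.46 for chaperones, 0.38 for folding enzymes, 0.22 for degradation, 0.14 for sensors and 0.23 for the channel. The members took 1.34%, 1.29% and 1.39% of reads in PBS and 1.61%, 1.66% and 1.91% in LCWE intestines.

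Creld2 was again the widest, at 83.8, 73.7 and 87.9 RPKM in PBS and 121, 124 and 179 RPKM in LCWE intestines (0.76, SE 0.172, adjusted p = 0.232). Hspa5 measured 180, 184 and 217 RPKM in PBS and 278, 277 and 373 RPKM in LCWE intestines (0.66, SE 0.155, adjusted p = 0.235). Sdf2l1 measured 18.0, 17.3 and 19.3 RPKM against 24.6, 23.1 and 32.7 RPKM (0.53, SE 0.143, adjusted p = 0.263). In each, the groups did not overlap and LCWE library 4 was the high one. That library was the highest of the LCWE intestines for 26 of the 32 members. The same count was not made over all genes, so it cannot be read as a trait of the members. The smallest p was that of Pdia5, an isomerase at 11.6, 11.3 and 11.8 RPKM in PBS and 17.6, 17.4 and 20.3 RPKM in LCWE intestines (0.64, SE 0.0942, adjusted p = 0.177).

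The other members that rose in liver were mostly higher in LCWE intestines as well, without passing the test. Hsp90b1 measured 730, 674 and 794 RPKM in PBS and 991, 992 and 1309 RPKM in LCWE intestines (0.57, SE 0.159, adjusted p = 0.277). Pdia4 measured 172, 155 and 179 RPKM against 229, 254 and 335 RPKM (0.68, SE 0.160, adjusted p = 0.235). Hyou1 measured 23.2, 21.6 and 25.0 RPKM against 30.7, 34.0 and 42.3 RPKM (0.59, SE 0.136, adjusted p = 0.234). None of these overlapped, and each was highest in LCWE library 4. Manf measured 58.2, 62.1 and 66.2 RPKM against 82.3, 81.2 and 101 RPKM (0.50, SE 0.118, adjusted p = 0.235). Dnajb11 measured 63.0, 61.7 and 65.3 RPKM against 80.3, 77.9 and 87.9 RPKM (0.37, SE 0.0889, adjusted p = 0.238). These groups did not overlap either.

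The degradation members showed the same order of size in the intestine as in liver at the top, with Derl3 first. Derl3 measured 2.18, 2.13 and 3.66 RPKM in PBS and 3.87, 4.03 and 6.32 RPKM in LCWE intestines (0.74, SE 0.247, adjusted p = 0.332). Syvn1 measured 5.24, 5.90 and 7.20 RPKM against 9.70, 8.39 and 9.16 RPKM (0.54, SE 0.132, adjusted p = 0.238). Herpud1 measured 10.4, 12.5 and 19.5 RPKM against 17.2, 18.8 and 23.7 RPKM (0.52, SE 0.238, adjusted p = 0.429). Of these 3, Herpud1 alone overlapped, since PBS library 4 stood above LCWE libraries 1 and 2. Edem1 measured 14.0, 14.3 and 16.5 RPKM against 19.0, 16.6 and 18.8 RPKM (0.27, SE 0.104, adjusted p = 0.366). Sel1l, Derl1, Derl2 and Os9 lay between -0.14 and 0.18.

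In the intestine no sensor member passed the test, and Xbp1 differed most. Xbp1 measured 76.0, 69.3 and 80.5 RPKM in PBS and 94.0, 93.9 and 116 RPKM in LCWE (0.42, adjusted p = 0.285). Eif2ak3 measured 10.8, 12.3 and 13.1 RPKM against 15.1, 12.6 and 12.4 RPKM (0.14, adjusted p = 0.574). Atf6 measured 5.01, 5.22 and 5.42 RPKM against 5.68, 5.43 and 6.22 RPKM (0.13, adjusted p = 0.534). Ern1 measured 8.05, 7.41 and 7.50 RPKM against 7.13, 7.64 and 8.46 RPKM (0.01, adjusted p = 0.947). The groups overlapped for Eif2ak3 and Ern1. P4hb, which also makes up part of the triglyceride transfer complex of enterocytes, ran the other way, at 532, 424 and 368 RPKM in PBS and 334, 357 and 301 RPKM in LCWE intestines (-0.40, SE 0.161, adjusted p = 0.385). Os9 and Ero1l also lay below 0, at -0.14 and -0.19.

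Marker RNA of the intestinal groups was as follows, and no marker passed the test. Summed enterocyte markers were 17337, 13265 and 8100 RPKM in PBS and 4898, 3612 and 1268 RPKM in LCWE intestines. Fabp2 and Apoa4 carried most of that sum, and 2 of its 5 genes overlapped between the groups. Those were Vil1 (866, 769 and 734 RPKM against 829, 505 and 357 RPKM) and Sis (194, 172 and 200 RPKM against 231, 129 and 95.4 RPKM). Markers of the distal small intestine (Fabp6, Slc10a2, Fgf15) ran from 72.9 to 3060 RPKM in PBS and 3631 to 5098 RPKM in LCWE, and proximal markers (Gata4, Lct, Fabp1) from 105 to 1674 and 51.3 to 124 RPKM. The distal sums did not overlap, although Fgf15 within them did. The proximal sums overlapped, as did Fabp1 within them, while Gata4 and Lct did not. Gata4 ran from 3.79 to 8.34 RPKM in PBS and 0.216 to 1.68 RPKM in LCWE intestines. Lct ran from 3.02 to 86.5 and 0.138 to 1.46 RPKM. Plasma cell markers were 2656, 2770 and 3309 RPKM in PBS and 2831, 3801 and 6023 RPKM in LCWE intestines, with LCWE library 4 the highest. Their part in the members' differences was not tested.

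The test of the liver difference minus the intestinal difference, in 1 fit over the 4 groups, separated 3 members, all wider in liver, where 0.532% of 18619 genes were wider in liver and 0.204% in the intestine. Creld2 differed between the tissues by 1.89 (SE 0.304, adjusted p = 0.0231). Dnajb9, at 17.1, 20.8 and 24.6 RPKM in PBS and 21.2, 20.3 and 21.8 RPKM in LCWE intestines, differed by 1.42 (SE 0.229, adjusted p = 0.0233). Its intestinal groups overlapped, while its liver groups lay far apart. Eif2ak3 differed by 0.93 (SE 0.171, adjusted p = 0.0360). Of the 32 members 25 lay above 0, with a median of 0.41 beside -0.01 over all genes. Sdf2l1 (1.04, adjusted p = 0.0555) and Syvn1 (1.19, adjusted p = 0.0832) missed the threshold.

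Creld2 was separated between the tissues in the LCWE libraries only. Its 3 PBS livers (43.0 to 82.5 RPKM) overlapped the PBS intestines (73.7 to 87.9 RPKM), and all 3 LCWE livers (363 to 406 RPKM) lay above the LCWE intestines (121 to 179 RPKM). Eif2ak3 kept its order, since the LCWE livers (7.64 to 8.61 RPKM) still lay below the LCWE intestines (12.4 to 15.1 RPKM). Levels in different tissues are shares of different RNA pools, so these orders depend on scaling.

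These calls were near the limit. With 1 library left out at a time, 0 to 5 members were called, and 20 to 461 of all genes, beside 137 with every library. The Eif2ak3 call held under 9 of 21 other settings and was lost with quantile scaling and with no filter, among others, with an adjusted p from 0.0179 to 0.113 over all 21. The Creld2 and Dnajb9 calls held under 16 and 15 of the 21. None was called without intestinal PBS library 3, liver LCWE library 1 or liver LCWE library 2. One was called without intestinal PBS library 2 (Dnajb9), intestinal LCWE library 4 or liver PBS library 3 (Creld2 in both), and 5 without liver PBS library 4.

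In the PBS libraries, the order of levels was much the same in both tissues at the top. Calr (865 to 1002 RPKM in intestine, 1019 to 1153 RPKM in liver), Hsp90b1 (674 to 794 and 781 to 874 RPKM) and P4hb (368 to 532 and 445 to 469 RPKM) led in each. Derl3 had the lowest mean in both, at 2.13 to 3.66 RPKM in intestine, where it overlapped Derl2 (2.46 to 2.92 RPKM), and 0.285 to 1.02 RPKM in liver. In limma, 10 members were higher in liver and 7 in intestine, where 16.6% and 60.5% of 18619 genes were. The median over members was 0.11 and that over all genes -0.69, so that most genes took a smaller share of reads in liver.

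Widest towards liver were Pdia5 (1.74, SE 0.117, adjusted p = 9.42e-08) and Herpud1 (1.43, SE 0.257, adjusted p = 0.000342). Widest towards intestine were Eif2ak3 (-1.63, SE 0.121, adjusted p = 2.13e-07), Ero1l (-1.45, SE 0.140, adjusted p = 2.09e-06) and Derl3 (-1.34, SE 0.347, adjusted p = 0.00413). Spread within groups was widest in the PBS livers, where the median coefficient of variation of the members was 15.1%, beside 7.27% in PBS intestines, 8.71% in LCWE intestines and 6.58% in LCWE livers. The split depended on scaling. With quantile scaling 17 were higher in liver and 3 in intestine, where 6482 and 6306 of 18619 genes were. With median-ratio size factors the members numbered 27 and 2, and all genes 6141 and 6971. The median over all genes was then 0.01 and -0.08, and the share of calls that were higher in liver moved from 21.6% to 50.7% and 46.8%. Edem1, Sec61a1 and Sec61b, called higher in intestine, changed sign under both scalings, and Canx under the second.

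Genes of the same pathway outside the 32 were read from 5 lists, whose counts in liver stand beside the 3.39% of all genes tested that rose and the 0.646% that fell. Of the other ER chaperones and folding enzymes, 3 of 30 tested rose in liver and 0 fell, with a median of 0.18. They were Hspa13, an Hsp70-like ATPase (0.87, adjusted p = 0.0212), Txndc11, a thioredoxin-domain protein (0.77, adjusted p = 0.0379), and Ero1lb, the second oxidase of the ER (0.79, adjusted p = 0.0441). Of the other degradation genes 1 of 19 rose, Ubxn4, which recruits the ATPase Vcp to the ER membrane (0.76, adjusted p = 0.0277), and the median was 0.10. Of the genes for ER import and N-glycosylation 0 of 26 passed, with a median of 0.25. Spcs2, Srprb and Magt1 came closest, with adjusted p from 0.0505 to 0.0575.

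Of the genes for ER exit and retrieval, 2 of 21 rose, with a median of 0.33. Both code for parts of the COPII coat, Sec23b (0.997, SE 0.119, adjusted p = 0.0112) and Sec24d (0.88, SE 0.120, adjusted p = 0.0157). Of the other sensors and response factors, 2 of 14 rose and 1 fell, with a median of 0.31. Creb3l2, a membrane-held factor freed by cleavage as Atf6 is, measured 2.77, 2.14 and 2.50 RPKM in PBS and 7.09, 5.69 and 7.07 RPKM in LCWE livers (1.26, SE 0.138, adjusted p = 0.00859). Wfs1, an ER membrane protein, also rose (0.70, adjusted p = 0.0429). Atf4, the factor translated when Eif2ak3 or a related kinase is active, measured 82.6, 89.7 and 103 RPKM in PBS and 64.4, 61.4 and 55.5 RPKM in LCWE livers, and fell by 0.60 (SE 0.119, adjusted p = 0.0448). Its mRNA does not report its translation.

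In the intestine no gene of the 5 lists passed the test, with medians of 0.18, 0.09, 0.22, 0.03 and -0.12 in the same order. Creb3l3, a membrane-held factor of enterocytes and hepatocytes, lay furthest from 0, at 77.4, 64.9 and 47.3 RPKM in PBS and 19.6, 13.8 and 7.58 RPKM in LCWE intestines (-2.24, SE 0.344, adjusted p = 0.186). Its values followed the order of the enterocyte marker sums given above, and that link was not tested.

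**Figure D5:**
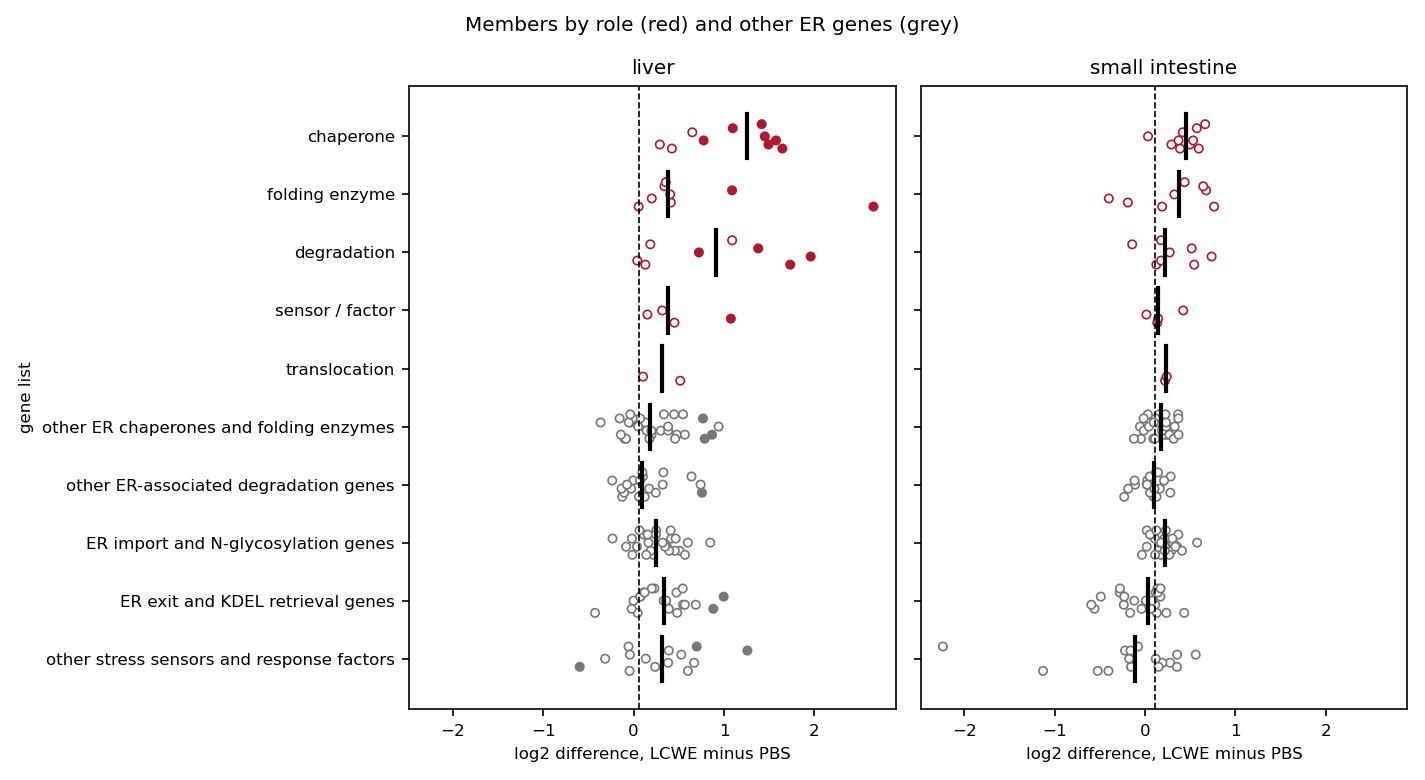
Difference of LCWE from PBS in log2(RPKM + 0.5) for the genes of each role and each further pathway list, in liver and small intestine. Points are single genes (filled where the test was passed), solid bars list medians and the dashed line the median of all genes tested. In liver the medians of 1.26 for chaperones and 0.38 for folding enzymes stand beside 0.18 for the other ER chaperones and folding enzymes. Members and lists were chosen with earlier results of these data known.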

How the data were processed

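Total RNA of 12 libraries (4 groups of 3) was sequenced. RNA was taken up in TRIzol and treated with DNase I, per the labels' protocols. Tools listed in the submitters' processing notes are edgeR 3.12.1, Subread 1.5.1, featureCounts and Trimmomatic 0.36, with mm10 as the build and no roles stated. No source used here names the aligner. The authors deposited RPKM per gene and library. Of 16 library columns, 12 matched the labels and 4 were not used. Multiplied by length, 100% of RPKM values came out as whole reads within 0.001, so the reads assigned per library are known (30294594 to 44921885). In the authors' deposited comparison table, p-values and false discovery rates stand beside log2 fold changes. It was used only to list members.

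The test was limma 3.58.1 (R 4.3.3) on log2(RPKM + 0.5), with a mean trend in eBayes, two-sided, adjusted by Benjamini-Hochberg over all genes tested. A gene entered with 3 or more libraries at an RPKM of 0.5 or higher. Each tissue was fitted separately. The tissue difference and the PBS comparison used 1 fit over 4 groups. With 3 against 3, an exact permutation p cannot be under 0.1, so none was used. The members, roles, pathway lists, marker lists, tests and alternatives were chosen with earlier results of these data known. Values per library are given for members called in a tissue or in the difference and for Hspa5, Creld2, Sdf2l1, Xbp1, Ern1, Eif2ak3 and Atf6, with a few others added after their values were seen. From each pathway list, the 3 tested genes with the smallest p in each tissue could be named. Of the 21 other degradation genes listed, Vimp and Selk were not matched. The marker lists were hepatocyte, enterocyte, plasma cell, goblet cell, Paneth cell, macrophage, neutrophil, exocrine pancreas, and proximal and distal small intestine. Exocrine pancreas markers summed to at most 0.733 RPKM in any library. Goblet cell markers summed to 1565 to 1942 RPKM in PBS and 2097 to 2257 RPKM in LCWE intestines, and Paneth cell markers to 18880 to 21499 and 14193 to 23989 RPKM. The code was tested on simulated data. Alternatives were other pseudocounts (0.1 and 1), filters, quantile and median-ratio scaling, robust moderation, voom on recovered reads, a replicate block, a fit over all groups and leaving out each library.

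The replicate numbers were not taken to pair libraries, since the labels give no shared animal. Correlations of same-numbered deviations between PBS and LCWE ran from -0.0832 to 0.107. Liver and intestine carry the same numbers in each treatment. Their same-numbered correlations ran from -0.0527 to 0.0821 in PBS and from 0.00664 to 0.0404 in LCWE. These values cannot show whether same-numbered tissues came from the same mouse.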

Additional observations from a re-analysis of the deposited data

Results flagged for a closer look

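The effect of LCWE differed between the tissues for 3 members by the test of the difference itself, each wider in liver than in intestine. The liver difference minus the intestinal difference was 1.89 for Creld2, 1.42 for Dnajb9 and 0.93 for Eif2ak3 (limma adjusted p = 0.0231, 0.0233 and 0.0360). Each was higher in 3 of 3 LCWE livers than in every PBS liver, as were 18.7% of all genes tested in liver. In the intestine this held for Creld2, as for 13.2% of all genes, but not for Dnajb9 or Eif2ak3. Several marker sums did not overlap between groups either. In liver, those of macrophages, neutrophils and plasma cells were among the higher with LCWE, and that of hepatocytes was among the lower. Several genes within these sums overlapped, among them Sdc1 of the plasma cell list and Alb and Apoa1 of the hepatocyte list. In the intestine, the distal and goblet cell sums were among the higher and the enterocyte sum among the lower. Their part was not tested.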

How the results depend on the processing

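No called member changed sign in liver or in the difference between tissues under the settings tried. The 14 members risen in liver became 3 to 16 with 1 library left out, 19 in 1 fit over 4 groups, 12 with no filter and 13 with a pseudocount of 0.1. In the intestine 0 became 2 in 1 fit over 4 groups (Pdia4 and Pdia5), where 243 of all genes were called, and stayed 0 with each library left out, where 0 to 70 of all genes were called. The 3 members that differed between tissues became 0 to 5 with 1 library left out, with 20 to 461 of all genes called, and 2 with quantile scaling or no filter (Eif2ak3 lost). Members higher in PBS liver numbered 10 and became 17 with quantile and 27 with median-ratio scaling. Those higher in PBS intestine numbered 7 and became 3 and 2. Over all 18619 genes, those higher in PBS liver went from 3095 to 6482 and 6141. Genes higher in PBS intestine went from 11266 to 6306 and 6971. Between the PBS tissues, quantile scaling reversed Edem1 (0.27), Sec61a1 (0.052) and Sec61b (0.18), and median-ratio scaling reversed Edem1 (0.50), Sec61a1 (0.17), Sec61b (0.47) and Canx (0.34). The cause was not tested.

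With the replicate block, 1 member was called in liver (Creld2), 0 in the intestine and 0 for the difference. Between the PBS tissues 10 were called higher in liver and 6 in intestine, where 3066 and 11197 of 18619 genes were. Calls over all genes in liver fell from 582 to 24. Within a tissue the block was the replicate number. Only numbers 2 and 4 are shared by PBS and LCWE, so that block leaves few residual degrees of freedom. For the difference and the PBS tissues, the block instead joined the liver and intestine libraries of the same treatment and number. Calls over all genes for the difference then fell from 137 to 12. Across all genes, calls in liver ranged from 55 to 943 with 1 library left out, were 335 with no filter, 987 in 1 fit over 4 groups and 729 with voom. Counting error bears mainly on Derl3. A setting with 1 library left out leaves 2 against 3.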
